A study of Homo sapiens with 6 samples.

Results

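The genes described here are the 4 ID genes, ID1, ID2, ID3 and ID4, and the 3 E-protein genes, TCF3, TCF4 and TCF12, which encode the partners that ID proteins bind. They were taken by name, as the 7 rows of the deposited count table whose Ensembl gene IDs carry these symbols, of 58051 rows in all. The cells were A375, an established human melanoma line with a mutant BRAF gene, and all of them had been starved for 2 h. In the TGFB1 group the starved cells then received human recombinant TGFB1, the ligand of the TGF-beta receptors, at 10 ng/mL for 2 h, and in the Vehicle group they received 4 mM HCl containing 1 mg/mL BSA for the same time. Each group holds 3 RNA-seq libraries. The submitters call them technical triplicates, so p-values measure the spread between these libraries and not that between independent experiments. All of the cells belong to a single tumour-derived line.

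E proteins are basic helix-loop-helix transcription factors: they pair with each other or with tissue-specific helix-loop-helix partners and bind the DNA sequence called the E-box. ID proteins have the helix-loop-helix part but lack the basic region that touches DNA, so a pair of an ID protein and an E protein cannot bind an E-box. The ID genes are classic targets of BMP signalling through SMAD1 and SMAD5. In epithelial cells TGF-beta can also lower ID1, through SMAD3 together with ATF3. In melanocytes ID1 is known to delay senescence by restraining CDKN2A, a cell-cycle inhibitor gene. TCF4 here is the E-protein gene and not TCF7L2, the Wnt effector that shares the alias.

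Library totals ran from 32458753 to 34895075 counts with TGFB1 and from 24713894 to 34374668 in Vehicle. On the first principal component Vehicle replicate 1 lay farthest out, at -37.1, against 17.7 to 20.7 in the 3 TGFB1 libraries and -13.4 and -8.25 in the other 2 Vehicle libraries. SMAD7, an immediate target of TGF-beta whose protein blocks its receptors, reached 63.6, 57.1 and 62.6 CPM in TGFB1 libraries, against 7.81, 8.84 and 11.2 CPM in Vehicle libraries. It rose by 2.70 on the log2 scale (edgeR adjusted p = 1.98e-19). CPM is the read count set to a fixed library size, scaled by TMM, a method that brings libraries to a common level. Of the 10 melanocyte and melanoma markers checked, PRAME averaged 85.5 CPM with TGFB1 and 85.6 CPM in Vehicle, and S100B averaged 54.6 CPM with TGFB1 and 58.9 CPM in Vehicle, while SOX10 was listed at 0 in all 6 libraries. SOX10 shares 2.4% of its exonic bases with POLR2F on the other strand, and counting mode and strandedness are not given. Whether its 0 reflects the cells or the counting was not tested. PAX3 averaged 18.4 CPM in each group. Of the pigment-cell genes among the 10 markers, DCT averaged 3.57 CPM with TGFB1 and 5.08 CPM in Vehicle (edgeR adjusted p = 0.21). The other pigment-cell genes were barely present. TYR averaged 0.0512 CPM with TGFB1 and 0.0315 CPM in Vehicle, TYRP1 0.322 and 0.444 CPM, PMEL 0.534 and 0.913 CPM, and MLANA 0.502 and 0.262 CPM. The 10 markers summed to 214.7 to 219.1 CPM with TGFB1 and 228.3 to 239.5 CPM in Vehicle, and 4 markers of dedifferentiated melanoma (SOX9, AXL, NGFR, EGFR) to 289.9 to 305.7 CPM with TGFB1 and 259.1 to 287.7 CPM in Vehicle. Both sums separate the groups, and their part in the changes of the ID genes was not tested. The sum of the 4 dedifferentiated markers was mostly AXL, at 252.0 CPM with TGFB1 and 225.6 CPM in Vehicle, and none of the 4 was called. MITF, the melanocyte master factor, fell, at 53.5 CPM with TGFB1 and 62.7 CPM in Vehicle (edgeR adjusted p = 0.0355). That call was lost without TGFB1 replicate 1, TGFB1 replicate 3, Vehicle replicate 1 or Vehicle replicate 2 (edgeR adjusted p from 0.107 to 0.229) and without a low-count filter (0.0854). The summed markers of other cells overlapped between the groups. Blood markers (PTPRC, CD3E) summed to 0.0614 to 0.202 CPM with TGFB1 and 0.164 to 0.402 CPM in Vehicle, and endothelial markers (PECAM1, VWF) to 0.491 to 0.853 CPM with TGFB1 and 0.327 to 0.657 CPM in Vehicle. Epithelial markers (EPCAM, KRT8) summed to 13.3 to 15.3 CPM with TGFB1 and 13.8 to 17.1 CPM in Vehicle, nearly all of it KRT8, and fibroblast markers (COL1A1, PDGFRB) to 5.05 to 5.68 CPM with TGFB1 and 4.73 to 6.01 CPM in Vehicle.

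Of the 7 genes, those that changed were all ID genes. ID1, ID3 and ID2 rose with TGFB1, by 1.92-fold, 1.68-fold and 1.64-fold, while ID4, the fourth member, did not pass the test and stood lower in every TGFB1 library than in any Vehicle library. Thus 3 of 4 ID genes were called higher, against 2.43% of the 16690 genes tested, and 0 were called lower by edgeR, DESeq2 or limma-voom, against 0.887% by edgeR. Here a call is an adjusted p under 0.05 in edgeR's quasi-likelihood test with Benjamini-Hochberg adjustment over all genes tested. None of the 3 E-protein genes was called, against 3.31% of all genes called in either direction. In bulk RNA a change in the share of cells with a transcript and one in its level per cell cannot be told apart. For the 3 ID genes called higher, every TGFB1 library lay above every Vehicle library, as for 8.96% of all genes tested. The E-protein genes had 0 calls with DESeq2 and limma-voom as well, and 0 of them had an unadjusted p under 0.05.

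**Figure D1:**
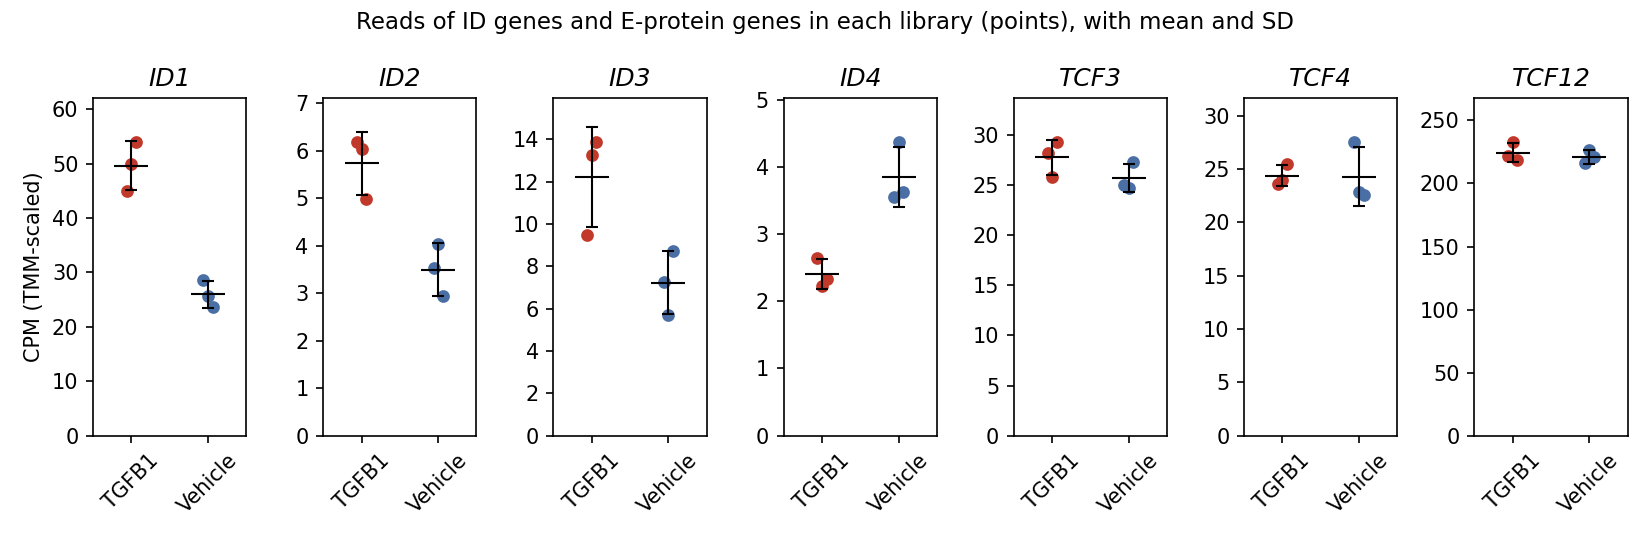
Level of each gene in TMM-scaled CPM (vertical axes, each from 0), with 3 TGFB1 libraries left of 3 Vehicle libraries as points and the mean and SD as bars. ID1 lies between 44.9 and 54.0 CPM with TGFB1 and between 23.6 and 28.6 CPM in Vehicle, ID4 shows the opposite order, and the 3 E-protein genes overlap between groups.

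ID1, the founding member of the family and the most abundant of its transcripts here, lies on chromosome 20 at 31605283 to 31606515 on the plus strand (GRCh38, GENCODE 29). It had 1476, 1729 and 1758 counts in TGFB1 libraries and 698, 781 and 823 counts in Vehicle libraries, which correspond to 44.9, 49.9 and 54.0 CPM with TGFB1 and 28.6, 25.7 and 23.6 CPM in Vehicle. The lowest TGFB1 library thus stood well above the highest Vehicle library. The mean was 49.6 ± 4.54 CPM with TGFB1 and 25.95 ± 2.47 CPM in Vehicle (SD, n = 3 each). The log2 fold change was 0.94 ± 0.08 (SE; edgeR adjusted p = 2.53e-10), and the 95% interval of the fold change ran from 1.71 to 2.15. ID1 ranked 58th of 16690 genes by p, and 108 genes called higher had a larger change. It kept its call in all 14 alternative analyses.

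ID3, whose protein is a close relative of the ID1 protein, lies on chromosome 1 at 23557918 to 23559794 on the minus strand. It had 9.50, 13.3 and 13.9 CPM in TGFB1 libraries, against 7.28, 5.72 and 8.71 CPM in Vehicle libraries. The groups did not overlap, but TGFB1 replicate 1 came within 1 CPM of Vehicle replicate 3. The mean was 12.2 ± 2.38 CPM with TGFB1 and 7.23 ± 1.495 CPM in Vehicle (SD, n = 3 each), with a log2 fold change of 0.75 ± 0.15 (SE; edgeR adjusted p = 0.0023). Among the 7 genes ID3 had the widest spread relative to counting error: its variance between libraries was 15.2 times that expected from counting alone with TGFB1 and 9.93 times in Vehicle. Without 1 library the log2 fold change of ID3 ranged from 0.61 to 0.92, and the call held each time.

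ID2, the ID gene best known for its part in lymphoid and neural development, lies on chromosome 2 at 8678845 to 8684453 on the plus strand. Its counts were low, at 203, 209 and 162 in TGFB1 libraries and 86, 123 and 102 in Vehicle libraries. Scaled, these were 6.18, 6.04 and 4.98 CPM with TGFB1 and 3.52, 4.04 and 2.93 CPM in Vehicle. All 3 TGFB1 libraries lay above all 3 Vehicle libraries. The log2 fold change was 0.72 ± 0.18 (SE; edgeR adjusted p = 0.0152), with a 95% interval of the fold change from 1.27 to 2.12. The call was lost without Vehicle replicate 3 (edgeR adjusted p = 0.0553), TGFB1 replicate 1 (0.126) or TGFB1 replicate 2 (0.0867). An antisense gene, ID2-AS1, shares 38 exonic bases (1.72%) with ID2 and had at most 5 counts, and the processed pseudogene ID2B had 0.

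ID4, which in other tissues often acts against its relatives by binding ID proteins itself, lies on chromosome 6 at 19837386 to 19840684 on the plus strand. Per length it was the least abundant ID transcript with TGFB1. It had 87, 77 and 76 counts in TGFB1 libraries and 87, 133 and 126 counts in Vehicle libraries, or 2.65, 2.22 and 2.33 CPM with TGFB1 and 3.56, 4.37 and 3.62 CPM in Vehicle. Every TGFB1 library lay below every Vehicle library, as for 7.49% of all genes tested. The log2 fold change was -0.68 ± 0.21 (SE), its 95% interval ran from -1.11 to -0.25, and the unadjusted p was 0.00268 in edgeR's test across all genes. Adjusted over all genes it did not pass (edgeR adjusted p = 0.0726). Over the 14 alternatives ID4 kept its direction, with an adjusted p from 0.0597 to 0.339 and 0 calls. The spread of its counts was close to counting error, at 0.677 times the counting variance with TGFB1 and 1.57 times in Vehicle.

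**Figure D2:**
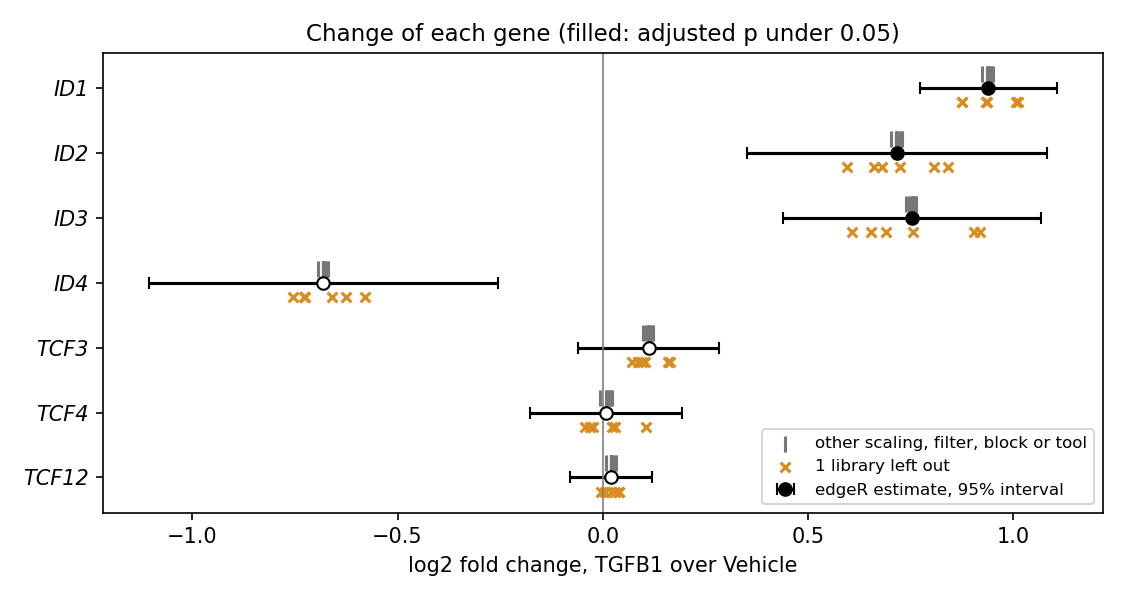
Log2 fold change, TGFB1 over Vehicle (horizontal axis), of each gene (rows), as the edgeR estimate with its 95% interval (circle and bar, filled where the adjusted p is under 0.05), under other scalings, filters, designs and tools (grey ticks) and without 1 library (orange crosses). ID1, ID2 and ID3 stay right of 0 and ID4 left of 0 in all of them, while TCF4 and TCF12 lie on both sides of 0.

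The stretches below show the 250 bases before the RefSeq start of each ID gene, printed because ID1, ID2 and ID3 rose while ID4 had a negative estimate that was not called. They come from RefSeq on GRCh38.p14: chr20:31605039-31605288 on the plus strand for ID1, chr2:8681806-8682055 on the plus strand for ID2, chr1:23559502-23559751 on the minus strand for ID3 and chr6:19837120-19837369 on the plus strand for ID4. Capitals mark the SMAD-type letters searched on both strands, GTCT and CAGA, the core of the SMAD binding element, and GGCGCC and GGAGCC, elements bound by BMP-type SMAD complexes. GTCT and CAGA can overlap, as in CAGAC.
ID1 promoter: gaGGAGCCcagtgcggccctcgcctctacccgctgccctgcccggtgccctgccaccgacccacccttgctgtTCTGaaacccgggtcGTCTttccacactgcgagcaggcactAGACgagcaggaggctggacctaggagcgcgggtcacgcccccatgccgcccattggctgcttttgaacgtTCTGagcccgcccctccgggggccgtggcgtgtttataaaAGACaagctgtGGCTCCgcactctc
ID2 promoter: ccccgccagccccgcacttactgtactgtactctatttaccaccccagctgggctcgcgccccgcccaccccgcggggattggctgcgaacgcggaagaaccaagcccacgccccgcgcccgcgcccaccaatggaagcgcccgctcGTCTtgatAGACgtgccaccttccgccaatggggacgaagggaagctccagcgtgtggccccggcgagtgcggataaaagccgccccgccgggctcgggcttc
ID3 promoter: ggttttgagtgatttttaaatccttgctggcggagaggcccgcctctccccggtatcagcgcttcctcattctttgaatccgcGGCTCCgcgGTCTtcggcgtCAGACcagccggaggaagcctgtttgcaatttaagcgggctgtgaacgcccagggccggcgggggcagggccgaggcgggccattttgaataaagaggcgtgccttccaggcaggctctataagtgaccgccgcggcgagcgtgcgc
ID4 promoter: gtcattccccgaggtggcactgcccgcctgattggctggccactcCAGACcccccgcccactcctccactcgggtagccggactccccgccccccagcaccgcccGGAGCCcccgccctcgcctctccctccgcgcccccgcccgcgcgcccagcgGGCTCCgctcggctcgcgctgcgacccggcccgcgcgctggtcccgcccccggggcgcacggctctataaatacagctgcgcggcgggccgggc

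Matches to short letters are common. Of 35116 such windows in the RefSeq table, 77.5% held GTCT, 89.2% held CAGA, 30.6% held GGAGCC and 16.4% held GGCGCC. The ID1 window held 3 matches of GTCT, 2 of CAGA and 2 of GGAGCC. The ID3 window held 2 matches of GTCT, 1 of CAGA and 1 of GGAGCC, and the ID4 window held 1, 1 and 2. The ID2 window held 2 matches of GTCT, which face each other across 4 bases in the stretch in capitals, and 0 of CAGA and GGAGCC. None of these 4 windows held GGCGCC. The ID1, ID3 and ID4 windows thus each held GTCT, CAGA and GGAGCC. Whether any match bears on the change of its gene was not tested, and sequence outside these windows was not searched.

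The E-box letters CAGCTG, a form of CANNTG, were in the windows of ID2 and ID4, at 205 and 21 bases before the start, and in 14% of all windows. CANNTG in any form was in 0 of the ID1 and ID3 windows, against 61.8% of all windows. The E-box form CACGTG, the CRE core TGACGT and the AP-1 letters TGANTCA were in 0 of the 4 windows and in 6.34%, 7.1% and 6.57% of all windows. The ID4 window was the richest in G and C of the 4, at 78.8%, against 66.0%, 69.2% and 62.0% for ID1, ID2 and ID3 and a median of 58% over all windows.

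None of the E-protein genes differed between the groups beyond the spread of the libraries. TCF12, the most abundant of them, lies on chromosome 15 at 56918623 to 57299281 on the plus strand. It had 221.8, 232.9 and 218.4 CPM in TGFB1 libraries, against 215.9, 226.5 and 220.9 CPM in Vehicle libraries. These ranges overlap over most of their length. The log2 fold change was 0.02 ± 0.05 (SE; edgeR adjusted p = 0.927), and its 95% interval, from -0.08 to 0.12, limits a change in fold terms to between 0.947 and 1.09. TCF3, the E-protein gene first studied in B lymphocytes, lies on chromosome 19 at 1609290 to 1652605 on the minus strand. It had 28.2, 25.9 and 29.3 CPM with TGFB1 and 25.1, 24.7 and 27.3 CPM in Vehicle, with overlapping groups. Its log2 fold change was 0.11 ± 0.08 (SE; edgeR adjusted p = 0.67), with an interval from -0.06 to 0.28.

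TCF4, in which loss of a copy causes a neurodevelopmental disorder, lies on chromosome 18 at 55222331 to 55664787 on the minus strand. It had 23.6, 24.0 and 25.5 CPM in TGFB1 libraries, against 27.5, 22.8 and 22.5 CPM in Vehicle libraries. The 3 TGFB1 libraries lay close together, while Vehicle replicate 1 stood above the other 5 libraries. The log2 fold change was 0.01 ± 0.09 (SE; edgeR adjusted p = 0.988), with an interval from -0.18 to 0.19. Without Vehicle replicate 1 it was 0.11, the highest of 14 alternatives, and it was below 0 when TGFB1 replicate 3 or 1 of the other 2 Vehicle libraries was left out. In GENCODE 29 TCF4 has 90 transcripts with 88 different starts, and RefSeq lists 10 promoter windows for it, 5 for TCF12 and 1 for TCF3. Counts per gene pool all of these isoforms, so a switch between them would not be visible. RPL21P126 and TCF4-AS2 share 260 exonic bases (0.934%) with TCF4 on the other strand and had at most 2 counts, and the pseudogene TCF3P1 had at most 1.

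Set beside each other per kilobase of exon, ID1 and TCF12 were the highest of the 7 genes in both groups. With TGFB1, ID1 stood at 40.25 ± 3.68 CPM per kb and TCF12 at 23.8 ± 0.803 CPM per kb, and every library kept that order. In Vehicle, ID1 stood at 21.05 ± 2.00 CPM per kb and TCF12 at 23.4 ± 0.561 CPM per kb (SD, n = 3 each), and their ranges overlapped. The levels with TGFB1 then went down through ID3 (6.80 CPM per kb), TCF3 (4.57), ID2 (2.60), ID4 (1.025) and TCF4 (0.876), and no neighbours in that order overlapped. In Vehicle the order below ID1 was TCF3 (4.23 CPM per kb), ID3 (4.03), ID4 (1.64), ID2 (1.59) and TCF4 (0.873), where the ranges of TCF3 and ID3 overlapped, as did those of ID4 and ID2. The ID1 level was higher than that of 93% of the genes tested with TGFB1 and 86.3% in Vehicle, and the TCF12 level was higher than that of 87.9% with TGFB1 and 87.7% in Vehicle.

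These levels depend on the length used. Divided by the longest annotated transcript in place of all exons, TCF12 stood at 37.0 CPM per kb with TGFB1 and 36.5 CPM per kb in Vehicle. It then overlapped ID1 with TGFB1 and lay above it in Vehicle. TCF4, whose exons span 27828 bases against 8343 in its longest transcript, moved up in the order to 2.92 CPM per kb with TGFB1 and 2.91 CPM per kb in Vehicle. The difference of a single gene between the groups does not depend on the length.

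The summed level of the 4 ID genes was 45.7, 51.6 and 54.8 CPM per kb in TGFB1 libraries, against 30.3, 27.7 and 26.9 CPM per kb in Vehicle libraries. That of the 3 E-protein genes was 28.97, 29.8 and 28.9 CPM per kb in TGFB1 libraries, against 28.0, 28.9 and 28.7 CPM per kb in Vehicle libraries. With all exons as the length, the ID sum thus separated the groups and the E-protein sum did not. The lowest TGFB1 library and the highest Vehicle library of the E-protein sum both stood at 28.86 CPM per kb. The ratio of the ID sum to the E-protein sum was 1.58, 1.73 and 1.90 with TGFB1 and 1.08, 0.959 and 0.938 in Vehicle, a mean difference of 0.80 on the log2 scale, or 1.75-fold. An exact two-sided permutation test over the libraries gave p = 0.1 for the ratio and for the ID sum, the smallest that 3 against 3 allows, and p = 0.2 for the E-protein sum. With the longest transcript lengths the ratio was 1.16 with TGFB1 and 0.668 in Vehicle, a 1.74-fold difference, so the level of the ratio depends on the length used. With those lengths the E-protein sum gave p = 0.1 in the same exact permutation test, at a 1.02-fold difference. That p is reached only when the groups separate, so whether the E-protein sum separates them depends on the length used. ID1 made up 79.8%, 78.5% and 80.0% of the ID sum with TGFB1 and 76.4%, 75.2% and 71.3% in Vehicle. TCF12 made up 80.1% to 82.8% of the E-protein sum with TGFB1 and 81.5% to 83.1% in Vehicle. Each sum therefore rests mainly on 1 gene, and mRNA levels say nothing on how much of either protein the cells held.

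**Figure D3:**
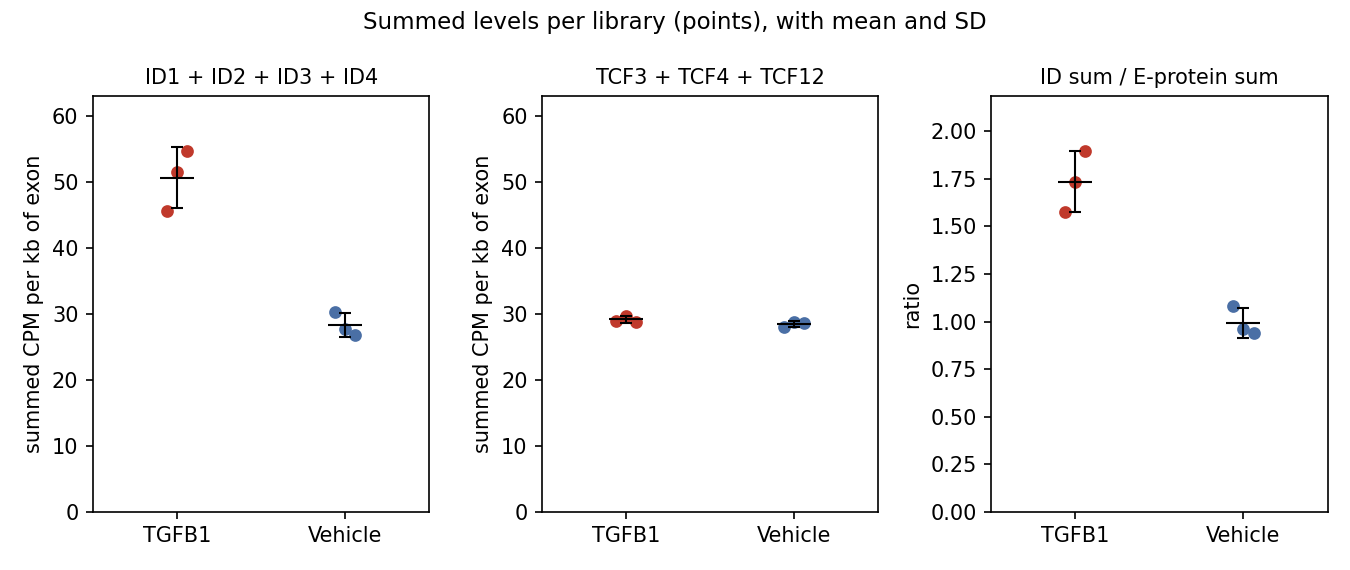
Summed CPM per kilobase of exon of the 4 ID genes (left) and of the 3 E-protein genes (middle, same axis), and the ratio of the sums (right), with 3 TGFB1 libraries left of 3 Vehicle libraries as points and the mean and SD as bars. The ratio is 1.58 to 1.90 with TGFB1 and 0.938 to 1.08 in Vehicle, while the E-protein sums lie between 28.0 and 29.8 in all 6 libraries.

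Ratios of 2 genes within a library need no scaling, and they were compared for all 21 pairs of the 7 genes. In 15 pairs the groups did not overlap: each of ID1, ID2 and ID3 against ID4 and against each E-protein gene, and ID4 against each E-protein gene. Each of these pairs holds an ID gene whose own libraries already separated the groups, so the pairs are not separate results. The share of such pairs over all genes was not computed. The largest shift was that of ID1 over ID4, whose log2 ratio was 4.09 to 4.53 with TGFB1 and 2.55 to 3.00 in Vehicle, a mean difference of 1.61. ID3 over ID4 differed by 1.44 and ID2 over ID4 by 1.40. Each of the 15 had an exact permutation p = 0.1, the smallest possible, and an adjusted p = 0.14 over the 21 pairs. The ratios among ID1, ID2 and ID3 overlapped between the groups, with mean differences of 0.22 for ID1 over ID2, 0.18 for ID1 over ID3 and -0.04 for ID2 over ID3 (exact permutation p = 0.4, 0.6 and 0.9). The ratios among the E-protein genes overlapped too, with mean differences between -0.01 and 0.10.

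For each of the 3 ID genes that rose, the 3 genes with the most similar profile of log2 CPM over the 6 libraries were taken from 13547 candidates. For ID1 they were SMURF2 (Pearson r = 0.99), REEP5 (0.99) and CERK (0.99), for ID2 RNF217 (0.99), VSIG10L (0.99) and NEK6 (0.99), and for ID3 FHL3 (0.99), KIAA1755 (0.99) and the antisense gene MCM3AP-AS1 (0.99), which is uncertain for that reason. These values describe 6 libraries that fall into 2 groups and are the top of many candidates. SMURF2 (log2 fold change 0.47), RNF217 (0.54) and REEP5 (0.26) rose, and the other 6 were not called. The call of REEP5 was lost without TGFB1 replicate 3 (edgeR adjusted p = 0.0501).

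The genes around the ID family were read from lists chosen with earlier results of these data known, so their counts describe and do not test. Of 19 tested genes of the BMP and SMAD arm that controls ID genes, 2 rose and 1 fell (15.8% called, against 3.31% of all genes), with a median log2 fold change of 0.19 against -0.01 over all genes. SMAD7 and the pseudoreceptor gene BAMBI (log2 fold change 0.31) rose. BMP4, which encodes a BMP ligand, fell by 1.18 on the log2 scale (edgeR adjusted p = 0.0063). It had 1.37, 1.44 and 1.01 CPM in TGFB1 libraries, against 2.41, 2.63 and 3.59 CPM in Vehicle libraries. Its call was lost without TGFB1 replicate 3 (edgeR adjusted p = 0.0583). The other BMP ligand genes of the list, named after their values were seen, were not called. BMP2 averaged 8.67 CPM with TGFB1 and 6.71 CPM in Vehicle, BMP6 3.30 and 2.395 CPM, and BMP7 0.833 and 1.147 CPM. Of the 19 tested genes 7 had an unadjusted p under 0.05 in edgeR's test, as did 2048 of the 16690 genes tested. The transducer genes themselves, named after their values were seen, were not called. SMAD5 averaged 144.0 CPM with TGFB1 and 143.0 CPM in Vehicle, with an edgeR adjusted p = 0.974. SMAD1 averaged 2.46 CPM with TGFB1 and 1.84 CPM in Vehicle (edgeR adjusted p = 0.603), and the inhibitor gene SMAD6 averaged 18.4 CPM with TGFB1 and 14.8 CPM in Vehicle (0.181). Without Vehicle replicate 3, SMAD6 was called higher (log2 fold change 0.45, edgeR adjusted p = 0.00993).

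Most tissue-specific partners of E proteins were barely present in these cells. Of 30 such class II helix-loop-helix genes 10 had no count in any library and 9 were tested, of which 1 rose and 2 fell (33.3% called, against 2.43% higher and 0.887% lower of all genes tested), with a median log2 fold change of 0.23. TWIST1, a mesenchymal and neural crest factor, had 22.1, 25.4 and 25.8 CPM in TGFB1 libraries, against 30.0, 34.2 and 34.2 CPM in Vehicle libraries (log2 fold change -0.43, edgeR adjusted p = 0.00141). NEUROG2, a proneural factor, had 2.89, 2.28 and 2.30 CPM with TGFB1 and 4.58, 4.34 and 5.09 CPM in Vehicle (log2 fold change -0.91, edgeR adjusted p = 0.00383). MSC, which encodes the repressor musculin, had 34.4, 33.6 and 32.9 CPM with TGFB1 and 27.5, 26.2 and 26.4 CPM in Vehicle (log2 fold change 0.33, edgeR adjusted p = 0.00839). The MSC call was lost without Vehicle replicate 2 (edgeR adjusted p = 0.0521) or TGFB1 replicate 1 (0.0706). MSC shares 19.6% of its exonic bases with the antisense gene MSC-AS1, so its level is uncertain, and TWIST1 and NEUROG2 share 6.94% and 4.02% of theirs with antisense genes. In each of these 3 genes, named because they were called, the groups did not overlap. Over the 9 tested genes of the list the groups did not overlap in 3 higher and 2 lower. Among all genes tested this held for 8.96% higher and 7.49% lower.

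Among 7 tested helix-loop-helix repressor genes of the HES, HEY and BHLHE kind, 2 rose and 0 fell (28.6% called, against 3.31% of all genes tested), with a median log2 fold change of 0.07. HES1, the Notch target, had 79.3, 85.1 and 75.8 CPM in TGFB1 libraries, against 21.97, 24.5 and 24.9 CPM in Vehicle libraries. BHLHE40 had 115.2, 97.4 and 100.2 CPM with TGFB1 and 9.74, 9.23 and 12.8 CPM in Vehicle. Both changes, 1.75 and 3.29 on the log2 scale, were larger than that of any ID gene (edgeR adjusted p = 4.72e-19 and 8.83e-16). Of the 8 tested cofactor genes of E proteins, 0 were called by edgeR, DESeq2 or limma-voom, against 3.31% of all genes called by edgeR. Among them 1 had an unadjusted p under 0.05, as did 2048 of the 16690 genes tested. It was LMO2, named after its values were seen, at 3.59 CPM with TGFB1 and 2.30 CPM in Vehicle. The most abundant were the acetyltransferase gene KAT2B, at 67.2 CPM with TGFB1 and 69.5 CPM in Vehicle, and the LIM-only gene LMO4, at 56.2 CPM with TGFB1 and 57.2 CPM in Vehicle.

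Of 6 genes that act on the stability of ID proteins 1 rose and 0 fell (16.7% called, against 3.31% of all genes tested), with a median log2 fold change of -0.05. SMURF2, a ubiquitin ligase gene induced by TGF-beta whose product can mark ID proteins for breakdown, had 126.2, 133.0 and 132.0 CPM in TGFB1 libraries, against 96.8, 93.1 and 92.6 CPM in Vehicle libraries (log2 fold change 0.47, edgeR adjusted p = 8.56e-08). Of 4 tested genes reported as repressed by ID proteins or activated by E proteins 1 rose and 0 fell (25% called, against 3.31% of all genes tested), with a median log2 fold change of -0.01. CDKN1C, an inhibitor of cyclin-dependent kinases, had 19.7, 18.7 and 20.1 CPM with TGFB1 and 14.5, 17.3 and 13.2 CPM in Vehicle (log2 fold change 0.38, edgeR adjusted p = 0.0354). Its call was lost without any single library except Vehicle replicate 2 (edgeR adjusted p from 0.0592 to 0.169). Without Vehicle replicate 3 the 1 call of this list was THBS1, which encodes thrombospondin, in the other direction (log2 fold change -0.17, edgeR adjusted p = 0.012). CDKN2A, named after its values were seen, was low and not called. It averaged 1.33 CPM with TGFB1 and 1.53 CPM in Vehicle (log2 fold change -0.21, edgeR adjusted p = 0.875).

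**Figure D4:**
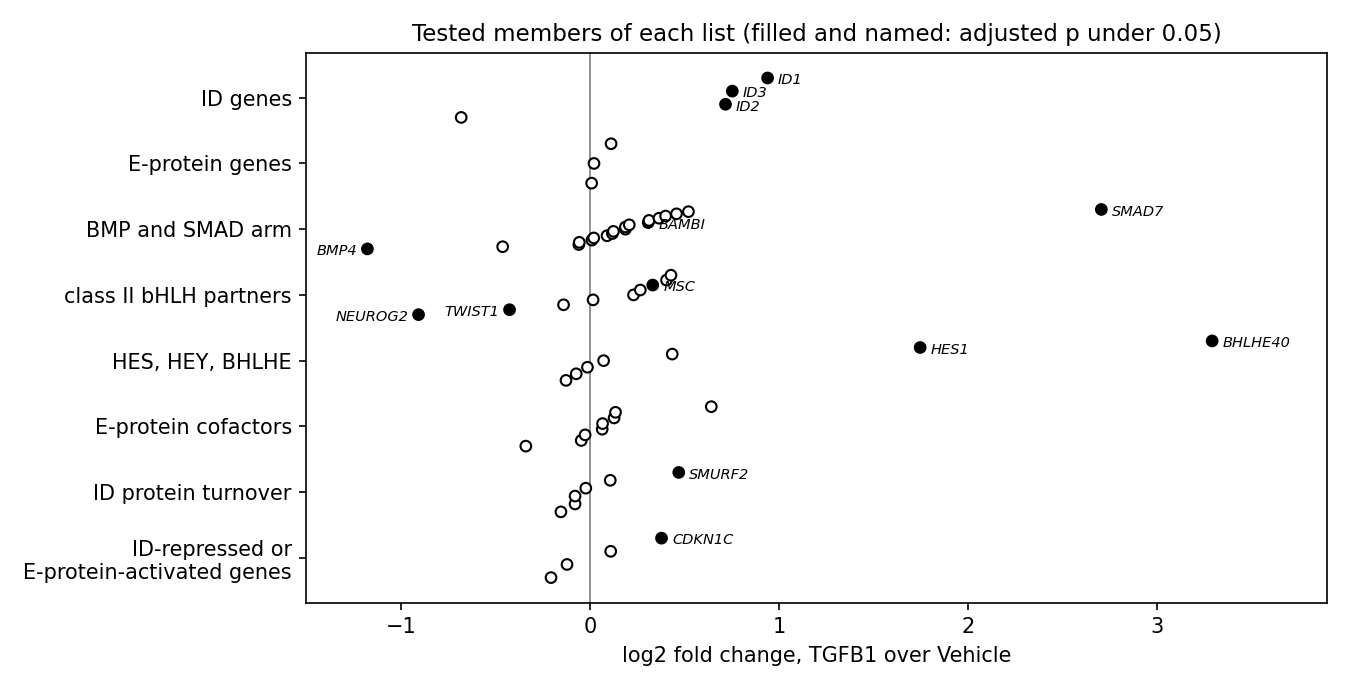
Log2 fold change, TGFB1 over Vehicle (horizontal axis), of each tested gene (circles) in the 8 lists (rows), filled and named where the adjusted p is under 0.05. Of the ID genes 3 lie between 0.72 and 0.94 and 1 at -0.68, the E-protein genes lie near 0, and HES1 and BHLHE40 lie farther right than any ID gene.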

How the data were processed

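RNA was sequenced from 6 libraries of A375 cells, 3 with TGFB1 and 3 with Vehicle. The labels name polyA RNA, while the labels' extraction protocol describes depletion of ribosomal RNA. The deposited file holds raw read counts per Ensembl gene. Per the submitters' processing notes, cutadapt, TopHat2 2.1 and HTSeq were used with GRCh38. Not given in the sources used here are annotation release, counting mode and strandedness. Symbols were matched by gene ID (57447 of 58051 rows), and models and lengths are those of GENCODE 29.

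edgeR 4.0.16 (R 4.3.3) kept genes with filterByExpr (minimum count 10, minimum total count 15), leaving 16690, scaled by TMM and fitted group alone with the robust quasi-likelihood F-test. Benjamini-Hochberg adjustment covered every gene tested (threshold 0.05). Library size in CPM is the sum over kept genes times the TMM factor. An SE is the absolute log2 fold change over the square root of F. For the profiles a prior count of 2 was added before taking log2 CPM, and genes needed a mean of at least 1 CPM.

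The 7 genes, the lists and the tests were chosen with earlier results of these data known. The text names all 7 genes, SMAD7, from each other list up to 4 called genes with the smallest p or else the 2 most abundant, and the 3 nearest profiles of ID1, ID2 and ID3. Beyond that rule, SMAD1, SMAD5, SMAD6, BMP2, BMP6, BMP7, LMO2, CDKN2A and THBS1 were named after their values were seen. Alternatives were DESeq2 size factors, upper-quartile scaling, total counts, no low-count filter, at least 50 counts in 3 libraries, a replicate block, DESeq2 1.42.0, limma-voom (limma 3.58.1) and leaving out each library, and for sums and ratios other lengths or a pseudocount of 0.5.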

Additional observations from a re-analysis of the deposited data

How the results depend on the processing

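ID1 and ID3 kept their calls in all 14 alternatives, ID2 in 11 of them, and ID4, TCF3, TCF4 and TCF12 were called in 0. Without 1 library the log2 fold change ranged from 0.60 to 0.84 for ID2, from -0.043 to 0.11 for TCF4 and from -0.0038 to 0.041 for TCF12, and with upper-quartile scaling that of TCF4 was -0.0057. LMO4, uncalled throughout, ranged from -0.051 to 0.014. Without 1 library the count of called genes over all genes ranged from 365 to 923, that of higher genes from 264 to 683 and that of lower genes from 97 to 240, against 553, 405 and 148; the highest of each was without Vehicle replicate 3, and the lowest were without TGFB1 replicate 1 (all and higher) or TGFB1 replicate 3 (lower). The called ID genes numbered 2 without Vehicle replicate 3, TGFB1 replicate 1 or TGFB1 replicate 2, and 3 otherwise. Among genes reported as repressed by ID proteins or activated by E proteins, 0 or 1 was called, and without Vehicle replicate 3 that 1 was THBS1, lower, in place of CDKN1C, higher. The cause of these shifts was not tested. The mean differences of log2 ratios that changed sign were those of ID1 over ID3 (-0.032 to 0.33), ID2 over ID3 (-0.30 to 0.23), TCF3 over TCF4 (-0.0073 to 0.20) and TCF4 over TCF12 (-0.070 to 0.10). The median log2 fold change of all genes stayed between -0.03 and 0.0012. Same-numbered libraries of the 2 groups correlated in their deviations from the group means at -0.03, 0.04 and 0.0076, and not every library correlated best with its own number. These correlations show no pairing by number, but 3 libraries per group are too few to exclude it. The replicate block gave 601 calls, against 553 without it, and changed no call of the 7 genes. ID2 and ID4 had 76 to 209 counts a library.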
